A study of Mus musculus with 6 samples.

Results

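The cytosolic ribosomal protein genes were followed in mouse embryonic fibroblasts that carried, lacked or had regained the kinase IKKa. Members were all probes whose annotated symbol was Rpl or Rps followed by a number, Rplp0, Rplp1, Rplp2 or Rpsa. S6 kinases, pseudogenes, the Rps23rg1 retrogene, Rps19bp1 and mitochondrial ribosomal proteins were left out. This gave 113 probes for 76 of the 17658 named genes on the array: 41 genes of the large subunit, 26 of the small subunit, 3 stalk genes and 6 paralogs.

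The samples were 6 Illumina Mouse-6 V1 bead arrays in 3 groups of 2. The groups were labelled IKKa+/+reconstituted (cells labelled as carrying IKKa again, called reconstituted here), IKKa-/- (cells lacking IKKa, called IKKa-null here) and wild-type. All were embryonic fibroblast cultures grown in FCS and harvested below full confluency, with no other agent named. The labels do not give the construct used for reconstitution, the number of clones, the age of the embryos or whether replicates were separate cultures, so the spread behind each p-value is that between these arrays and may be technical.

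Ribosomal proteins assemble with ribosomal RNA into the small subunit, which decodes the mRNA, and the large subunit, which forms peptide bonds. They are made in matched amounts, and their mRNAs are among the most abundant of growing cells. In mammals most of these mRNAs begin with a pyrimidine tract, the TOP element, through which mTOR controls their translation. IKKa belongs to the kinase complex that activates NF-kB.

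Promoter stretches are shown here because a short sequence that the choice by symbol had not used was more frequent in member entries than in all entries. In the RefSeq table of mouse GRCm38.p6 promoters, each entry covers 250 bases before and 50 after an annotated start, and 62 of the 76 genes had 74 entries. The hexamer CTTCCG or its reverse complement CGGAAG, the core bound by ETS-family factors such as GABP, was in 46 of the 74 member entries (62.2%), against 5537 of all 32851 entries (16.9%). A tract of C followed by at least 5 bases that are each C or T, read on the coding strand and beginning from 10 bases before to 20 bases after the start, was in 52.7% of member entries and 25.5% of all entries. The octamer AAGATGGC or GCCATCTT, which holds the core of the YY1 motif, was in 10.8% and 2.75%. The E-box CACGTG was in 10.8% and 7.15%, and TATAAA, read on the coding strand, in 8.1% and 8.32%. AAGATGGC can share its first letters with the end of CGGAAG, and the pyrimidine tract can share letters with CTTCCG. A match is only a match of letters, and member entries were not set against entries of like base composition.

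The 100 bases around the start, 80 before it and 20 from it, are given for 5 members named below that had an entry. CTTCCG or CGGAAG is in capitals. Rpl30, Rpl29, Rps20 and Rpl8, also named below, had no entry and are not shown. Rpl41 gave the brightest target of every array (chr10:128549149-128549248, minus strand), and Rpl38 had 1 probe that was lower in reconstituted cells (chr11:114668500-114668599, plus strand). Rplp2 (chr7:141447571-141447670, plus strand), Rpl22l1 (chr3:28805428-28805527, plus strand) and Rplp0 (chr5:115559387-115559486, plus strand) had probes that differed between groups.
Rpl41: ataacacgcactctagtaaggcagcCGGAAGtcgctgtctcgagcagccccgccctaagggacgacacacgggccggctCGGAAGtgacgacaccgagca
Rpl38: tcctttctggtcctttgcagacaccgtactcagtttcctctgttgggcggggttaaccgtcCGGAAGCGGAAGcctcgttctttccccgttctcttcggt
Rplp2: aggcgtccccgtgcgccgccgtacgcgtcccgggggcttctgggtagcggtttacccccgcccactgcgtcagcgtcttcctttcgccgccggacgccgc
Rpl22l1: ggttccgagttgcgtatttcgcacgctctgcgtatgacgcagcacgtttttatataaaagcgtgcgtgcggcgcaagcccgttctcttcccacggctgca
Rplp0: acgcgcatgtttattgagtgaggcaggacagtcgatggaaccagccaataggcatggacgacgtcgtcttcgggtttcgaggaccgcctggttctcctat
Rpl41 and Rpl38 each held the hexamer 2 times in these stretches, Rplp2 held it once elsewhere in its 300-base entry, and the entries shown for Rpl22l1 and Rplp0 did not hold it.

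Raw median intensities lay between 111.1 and 123.1 units on the 6 arrays, against medians of 100.8 to 114.4 for 394 background probes. A probe counted as detected when its signal was reached by less than 1% of those background probes, and it was tested if this held on at least 2 arrays. The fit covered 11659 probes. Log2 signals of replicate arrays correlated at 0.968 in reconstituted, 0.9744 in IKKa-null and 0.9793 in wild-type cells. Of 13 fibroblast markers, 12 were detected (all but Lum). Of the markers of other cell types, 2 of 5 epithelial (Krt14 and Krt7), 1 of 4 blood (Cd14), 1 of 4 endothelial (Flt1), 2 of 4 neural (Tubb3 and Nes) and 0 of 4 muscle genes were detected, while the defining genes Cdh1, Krt8, Krt18, Ptprc, Pecam1, Myod1 and Gfap were not. The summed fibroblast marker signal was 24900 to 35000 units in reconstituted, 13700 to 13900 in IKKa-null and 11800 to 12800 in wild-type cells. The epithelial sum was 28.6 to 58.7 units in reconstituted, 476 to 501 in IKKa-null and 304 to 307 in wild-type cells, and the endothelial sum 595 to 1030, 429 to 439 and 1470 to 1490 in the same groups. Both sets were without overlap between groups, whereas the blood and neural sums overlapped between some groups, at 10.1 to 153 and 237 to 511 units over the 6 arrays. A control target for SV40 large T antigen read 207.8 ± 6.43 units in reconstituted, 100.2 ± 16.4 in IKKa-null and 5254 ± 1160 in wild-type cells (SD, n = 2 each). A neomycin resistance target read 3048 ± 580 units in reconstituted, 2332 ± 143 in IKKa-null and 112.2 ± 7.99 in wild-type cells (SD, n = 2 each). Xist, the X-inactivation RNA, was detected in wild-type cells only, at 468.5 ± 85 units, and the Y-linked Eif2s3y in reconstituted and IKKa-null cells only, at 356.4 ± 76.3 and 462 ± 18.6 units (SD, n = 2 each). These markers separate wild-type cells from both other groups, and IKKa status cannot be told apart from them in any comparison with wild type. The gene of IKKa itself was not analysed here.

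Of the 113 member probes, 93 were tested, for 71 genes, and 88 were detected on all 6 arrays. Another 19 were detected on fewer than 2 arrays, 16 of them on none. The remaining probe was 1 of 2 for Rpl13a, listed among the array's control targets, and was left out of the fit although detected on all 6 arrays. Rpl39l, Rpl3l, Rps15a, Rps19 and Rpsa had no tested probe. As only detected probes were tested, the counts below describe those and not all members. A probe's brightness depends on its sequence as well as on its mRNA, and which copies of these multi-copy families a probe binds was not tested.

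The members made up a steady share of the signal. Of the background-subtracted signal of each array, they took 10.1% and 10% in reconstituted cells, 9.91% and 9.56% in IKKa-null cells and 9.55% and 10.5% in wild-type cells. The groups overlapped. The brightest target of all 6 arrays was Rpl41, which encodes the smallest ribosomal protein. Its raw intensity was 47475 and 34258 units in reconstituted cells, 40653 and 46996 in IKKa-null cells and 34894 and 44517 in wild-type cells. The groups overlapped, and because quantile normalization gives the top rank 1 value on every array, its normalized level was 15.34 everywhere and carries no comparison.

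Members varied from array to array to different degrees. The range over the 6 arrays was under 0.5 on the log2 scale for 42 of the 93 tested member probes (45.2%), against 10.6% of all tested probes, and over 1 for 20 members (21.5%), against 49.9% of all tested probes. The median range was 0.56 for members and 1 for all probes. Among the steadiest was Rps2, a small-subunit protein at the mRNA entry, at log2 levels of 14.37 and 14.38 in reconstituted, 14.34 and 14.33 in IKKa-null and 14.46 and 14.47 in wild-type cells. Its groups did not overlap, yet the differences were at most 0.13 and none was called. Between replicates, the SD of the difference in log2 signal was 0.249 over members and 0.471 over all probes in reconstituted cells, 0.207 and 0.414 in IKKa-null cells, and 0.262 and 0.382 in wild-type cells. Bright probes scatter less than dim ones, and members were not set against probes of like brightness. Quantile normalization also gives each rank the same value on every array, and 31 member probes had mean ranks within the 100 brightest. How far this narrowed the ranges of members was not tested.

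**Figure D1:**
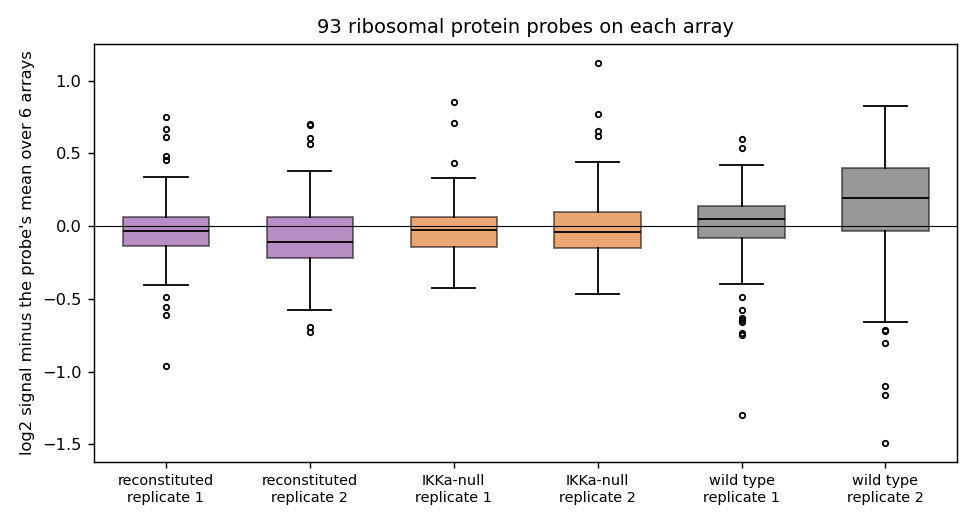
Log2 signal of the 93 tested ribosomal protein probes on each array, as the deviation from each probe's mean over the 6 arrays (y axis). Boxes span the quartiles with the median as a line, whiskers reach the last point within 1.5 box lengths, and points lie beyond them. Medians were -0.03 and -0.11 in reconstituted, -0.03 and -0.04 in IKKa-null and 0.05 and 0.19 in wild-type cells.

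The wild-type arrays differed from each other in this respect. The median deviation of the member probes from their means was -0.03 and -0.11 on the reconstituted arrays, -0.03 and -0.04 on the IKKa-null arrays and 0.05 and 0.19 on the wild-type arrays. Replicate 2 of the wild-type cells stood highest. Several of the counts below depend on that array. Leaving out other arrays also lowered counts, for members and for all probes.

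IKKa-null against wild-type cells asked whether loss of IKKa went with altered ribosomal protein mRNA. Of the 93 member probes, in IKKa-null cells 7 rose and 4 fell (limma, Benjamini-Hochberg adjusted p under 0.05 over all 11659 probes). These shares, 7.53% and 4.3%, lay below the 15.0% of all tested probes called higher and the 14.0% called lower. Without background correction 9 members (9.68%) were called higher and 14 (15.1%) lower, against 16.1% and 16.8% of all tested probes, and the deposited matrix gave the same counts. The median log2 change was -0.15 over members and -0.07 over all probes. With median scaling in place of quantile normalization these medians were 0.01 and 0, and with cyclic loess -0.03 and 0.02. The members' median had no settled sign, and the median of all probes moved with the scaling too. The change was within 0.5 in either direction for 69 members (74.2%), against 55.5% of all probes. Fewer than these 11 members were called without any 1 of the wild-type or IKKa-null arrays, and fewer of all probes too. The members' median change then lay between -0.24 and -0.1.

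Reconstituted against wild-type cells gave 7 member probes higher and 8 lower of 93, or 7.53% and 8.6%, where 17.4% of all tested probes were called higher and 19.0% lower. With median scaling these calls became 11 higher and 3 lower, and those of all probes 2498 higher and 1647 lower in place of 2030 and 2212. With cyclic loess the members' calls were 10 higher and 5 lower (10.8% and 5.38%), against 20.2% and 15.6% of all tested probes. Without background correction, and in the deposited matrix, they were 10 higher and 15 lower (10.8% and 16.1%), against 18.8% and 21.5% of all tested probes. The median change was -0.21 over members and -0.08 over all probes. These medians were 0.03 and 0.07 with median scaling and -0.02 and 0.02 with cyclic loess, so both moved with the scaling. Without wild-type replicate 2 fewer probes were called, among members and among all probes. The median change was then -0.14 over members and -0.07 over all probes.

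Reconstituted against IKKa-null cells compared the groups that shared the neomycin and Y-linked signals. The SV40 large T target had log2 values of 6.61 and 7.09 in reconstituted and 4.68 and 4.91 in IKKa-null cells. It was detected in the first but not in the second of these groups. Markers of cell type differed between them: 11 of 18 fibroblast probes were called higher in reconstituted cells (median log2 change 1.24, up to 5.31), as was Flt1 (1.11), and Krt7 (-3.68) and Krt14 (-1.18) were called lower. Their part in the results was not tested. No member probe was called higher and 2 were called lower (2.15%), where 6.46% of all tested probes were called higher and 6.88% lower. At an unadjusted p under 0.05 in the same limma fit, 2 members were higher and 6 lower (2.15% and 6.45%), against 14.1% and 14.8% of all tested probes. Without background correction 1 member was called higher and 3 lower, against 8.12% and 8.34% of all tested probes. The median change was 0.00 over members and -0.01 over all probes, and 84 of the 93 members (90.3%) were within 0.5, against 68.8% of all probes. Fewer than 2 members were called when any 1 of the 6 arrays was left out, and fewer of all probes too. The members' median change then lay between -0.01 and 0.01. The 3 comparisons share their arrays, so they are not independent.

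**Figure D2:**
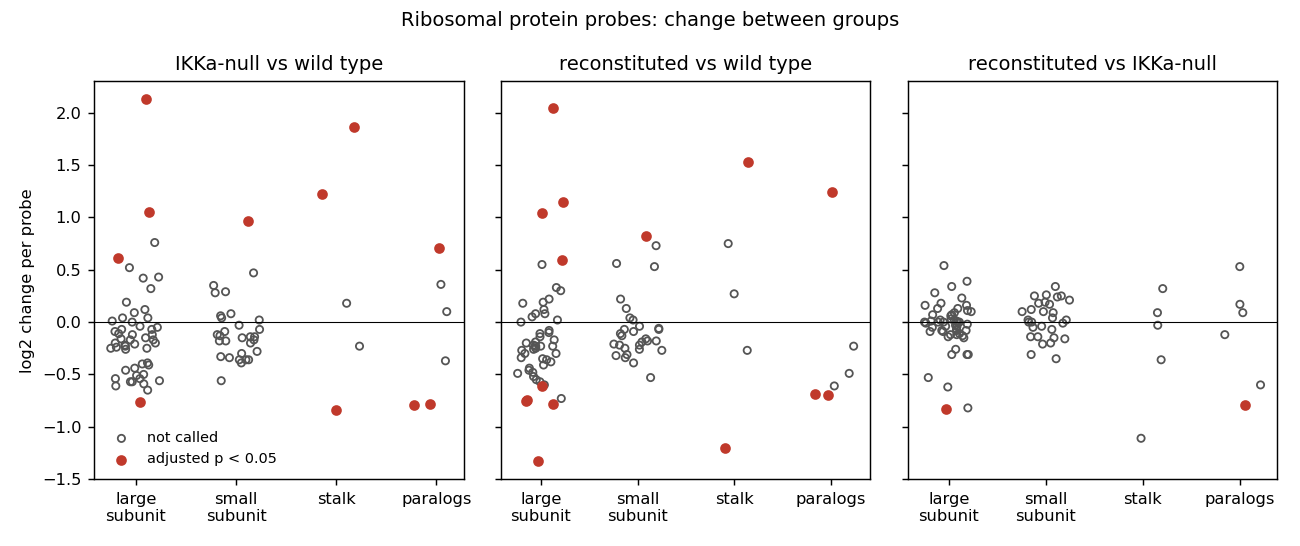
Log2 change of each tested ribosomal protein probe (y axis) by subunit class in the 3 comparisons, 1 point per probe with sideways scatter only for legibility. Filled points have an adjusted p under 0.05 (limma). Most points lie within 0.5 of 0, and the 30 small-subunit probes hold 1 call against wild type in each of the first 2 panels.

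Of the 52 tested probes of the large-subunit list, 3 were called higher (5.77%) and 1 lower (1.92%) in IKKa-null against wild-type cells. All tested probes had 15.0% and 14.0%. In reconstituted against wild-type cells the list had 4 (7.69%) and 5 (9.62%), against 17.4% and 19.0%. In reconstituted against IKKa-null cells it had 0 and 1 (1.92%), against 6.46% and 6.88%. There 1 and 3 (1.92% and 5.77%) had an unadjusted p under 0.05 (limma), against 14.1% and 14.8% of all probes. The probe with the greatest change was for Rpl30, a large-subunit protein that in yeast binds its own transcript. Its log2 level was 13.05 and 13.14 in reconstituted, 13.15 and 13.20 in IKKa-null and 11.14 and 10.95 in wild-type cells. Both wild-type arrays lay about 2 log2 units below all others. It was 4.39-fold higher in IKKa-null cells than in wild type (log2 change 2.13, SE 0.169, adjusted p = 0.000417, limma) and 4.14-fold higher in reconstituted than in wild-type cells (2.05, SE 0.169, adjusted p = 0.000419). The second Rpl30 probe did not follow. Its log2 levels were 8.37 and 8.85 in reconstituted, 9.26 and 9.61 in IKKa-null and 8.96 and 8.87 in wild-type cells, and its change was 0.52 in IKKa-null (adjusted p = 0.13) and -0.30 in reconstituted (adjusted p = 0.322) against wild-type cells (limma).

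Rpl29, a large-subunit protein also described as a heparin-binding cell-surface protein, had 1 probe. It read 10.71 and 10.63 in reconstituted, 10.69 and 10.46 in IKKa-null and 9.51 and 9.53 in wild-type cells on the log2 scale. Both wild-type arrays were lowest. It was 2.07-fold higher in IKKa-null cells than in wild type (log2 1.05, SE 0.173, adjusted p = 0.00589, limma) and 2.22-fold higher in reconstituted than in wild-type cells (1.15, SE 0.173, adjusted p = 0.00366). Rpl9, which lies near the base of the stalk, read 14.18 and 14.09 in reconstituted, 14.06 and 14.26 in IKKa-null and 13.68 and 13.42 in wild-type cells. It rose 1.52-fold in IKKa-null (adjusted p = 0.0463) and 1.5-fold in reconstituted cells (adjusted p = 0.0438) against wild type (limma). Each of these calls was lost in 8 of 13 other settings, with adjusted p up to 0.215 in IKKa-null and 0.208 in reconstituted cells.

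Rpl5 and Rpl11 form with 5S RNA the particle that can bind and restrain Mdm2, the ubiquitin ligase of p53. One Rpl5 probe read 12.51 and 11.89 in reconstituted, 12.09 and 11.75 in IKKa-null and 11.36 and 10.95 in wild-type cells, and was higher in reconstituted than in wild-type cells (log2 1.04, SE 0.27, adjusted p = 0.0236, limma). Without wild-type replicate 2 the change was 0.84 (adjusted p = 0.129), and without reconstituted replicate 1 it was 0.73 (adjusted p = 0.09), while with no filter on dim probes the adjusted p was 0.0564. The other Rpl5 probe read 13.02 and 12.90 in reconstituted, 12.73 and 12.98 in IKKa-null and 13.02 and 13.51 in wild-type cells, with a change of -0.30 (adjusted p = 0.314). The Rpl11 probe read 13.92 and 13.88 in reconstituted, 13.66 and 13.89 in IKKa-null and 14.37 and 14.26 in wild-type cells. Wild-type arrays were highest for Rpl11, with changes of -0.41 in reconstituted (adjusted p = 0.103) and -0.54 in IKKa-null cells (adjusted p = 0.0566) that did not pass the threshold.

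Among the probes that were lower, Rpl38, which in mouse embryos is needed for translation of a set of Hox mRNAs, had the greatest change. Its second probe read 9.13 and 9.61 in reconstituted, 10.18 and 10.22 in IKKa-null and 10.69 and 10.71 in wild-type cells. The 3 groups did not overlap. It was lower in reconstituted than in wild-type cells (log2 -1.33, SE 0.205, adjusted p = 0.00405, limma) and lower in reconstituted than in IKKa-null cells (-0.83, SE 0.205, adjusted p = 0.0422), while the change of -0.50 in IKKa-null against wild-type cells did not pass (adjusted p = 0.11). The call against IKKa-null cells was lost in 6 of 13 other settings, with adjusted p up to 0.175. The first Rpl38 probe read 13.82 and 13.91 in reconstituted, 14.03 and 14.00 in IKKa-null and 14.18 and 14.09 in wild-type cells, with changes of -0.27, -0.15 and -0.12 for the same comparisons, none called. The third was on no array above background.

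Rpl21 had 4 tested probes, and all 4 had negative changes against wild type in both other groups. The changes lay between -0.76 and -0.51 in IKKa-null cells, with 1 of 4 called, and between -0.78 and -0.49 in reconstituted cells, with 3 of 4 called. The brightest of them read 12.39 and 12.26 in reconstituted, 12.33 and 12.28 in IKKa-null and 12.72 and 12.92 in wild-type cells. Both wild-type arrays stood above the rest, but this probe passed in neither comparison, with an adjusted p of 0.0604 in reconstituted and 0.0623 in IKKa-null cells (limma). The call of the third probe in IKKa-null cells was lost without any 1 of the IKKa-null or wild-type arrays (adjusted p of 0.0518 to 0.159) and with no filter on dim probes (adjusted p = 0.0539), and in reconstituted cells without wild-type replicate 2 (adjusted p = 0.152) or reconstituted replicate 2 (adjusted p = 0.111), with median scaling (-0.48, adjusted p = 0.104) and with no filter on dim probes (adjusted p = 0.0502). In reconstituted cells the call of the second Rpl21 probe was lost in 9 of 13 other settings (adjusted p up to 0.128) and that of the fourth in 6 of 12 (adjusted p up to 0.15). Without background correction the 3 calls in reconstituted cells had changes of -0.44 to -0.39, and the call in IKKa-null cells one of -0.40. Rpl8, a core large-subunit protein next to the peptidyl transferase centre, read 12.90 and 12.66 in reconstituted, 13.11 and 13.06 in IKKa-null and 13.37 and 13.70 in wild-type cells. It was lower in reconstituted than in wild-type cells (log2 -0.75, SE 0.193, adjusted p = 0.0231, limma), a call lost without wild-type replicate 2 (-0.58, adjusted p = 0.129) and without reconstituted replicate 2 (-0.63, adjusted p = 0.0958), with median scaling (-0.51, adjusted p = 0.0755) and with cyclic loess (-0.53, adjusted p = 0.0699).

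The small-subunit list (30 tested probes) held few calls. In IKKa-null against wild-type cells 1 probe (3.33%) was called higher and none lower, and likewise in reconstituted against wild-type cells. All tested probes had 15.0% and 14.0% in the former and 17.4% and 19.0% in the latter. No probe was called in reconstituted against IKKa-null cells, against 6.46% and 6.88% of all probes. All 30 changes there lay between -0.35 and 0.34. At an unadjusted p under 0.05 (limma) 0 of them passed, against 14.1% higher and 14.8% lower of all probes. The called probe was for Rps20, a small-subunit protein near the head of the subunit. It read 14.49 and 14.56 in reconstituted, 14.63 and 14.72 in IKKa-null and 13.82 and 13.59 in wild-type cells, with both wild-type arrays lowest. It was 1.96-fold higher in IKKa-null (log2 0.97, SE 0.173, adjusted p = 0.00809, limma) and 1.77-fold higher in reconstituted cells (0.82, SE 0.173, adjusted p = 0.0116) than in wild-type cells. Adjusted p was 0.0565 in IKKa-null and 0.0741 in reconstituted cells without wild-type replicate 2, and 0.0526 in IKKa-null cells without IKKa-null replicate 2. A second Rps20 probe read 14.24 and 14.17 in reconstituted, 13.96 and 14.09 in IKKa-null and 14.34 and 14.43 in wild-type cells. There the wild-type arrays were highest, with changes of -0.36 in IKKa-null (adjusted p = 0.146) and -0.18 in reconstituted cells (adjusted p = 0.42).

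Rps6, the substrate of the S6 kinases, passed in no comparison with either tested probe. Its first probe read 13.12 and 13.31 in reconstituted, 13.05 and 12.88 in IKKa-null and 12.62 and 12.75 in wild-type cells, and its second 10.05 and 10.03 in reconstituted, 10.39 and 10.30 in IKKa-null and 10.23 and 10.35 in wild-type cells. The changes in reconstituted against wild-type cells were 0.53 (adjusted p = 0.0541) and -0.25 (adjusted p = 0.263, limma). Rps9 was measured by 3 probes, whose changes against wild type lay between -0.18 and -0.12 in IKKa-null cells and between -0.18 and 0.13 in reconstituted cells.

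**Figure D3:**
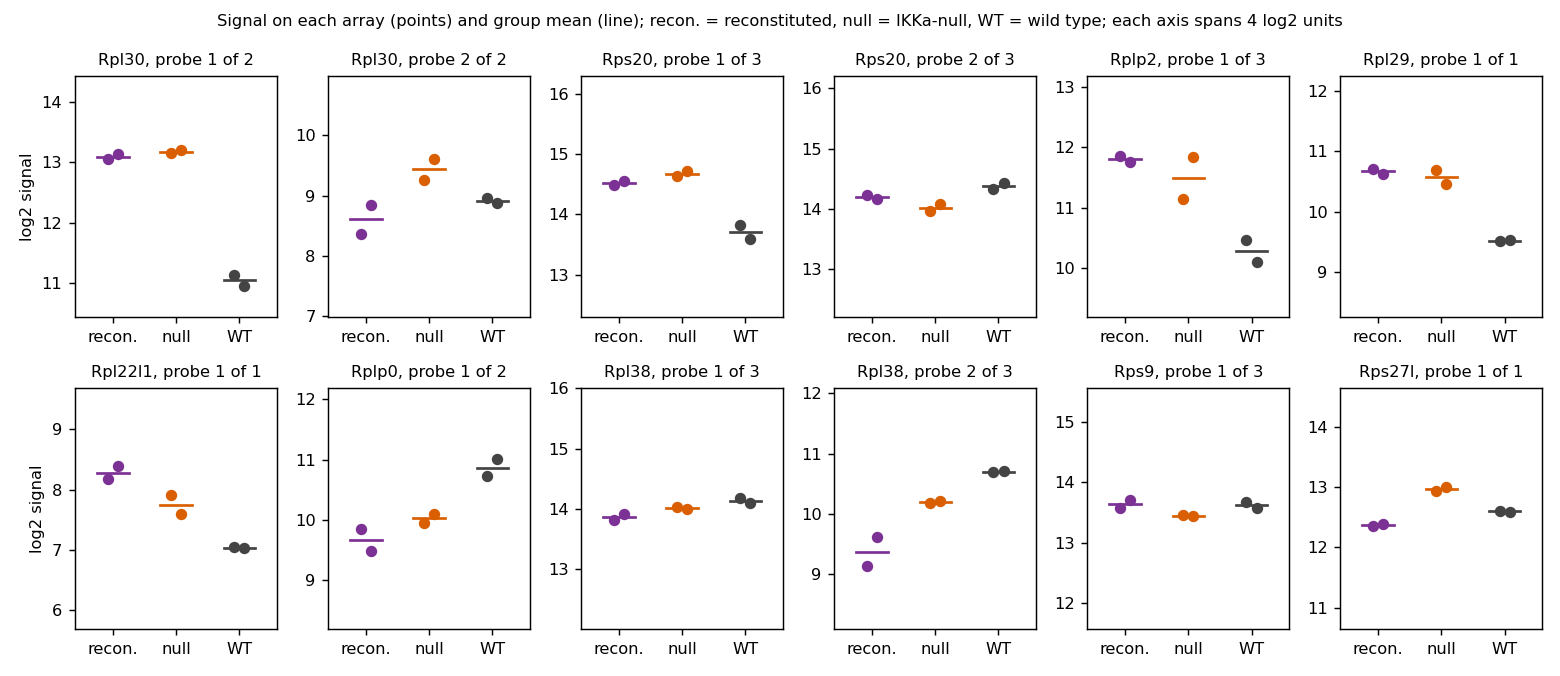
Log2 signal (y axis, 4 log2 units in each panel) of 12 ribosomal protein probes on the 6 arrays. Points are arrays and lines are means of the 2 arrays of a group, in the order reconstituted (recon.), IKKa-null (null) and wild type (WT). Wild-type points lie lowest for Rpl30 probe 1, Rps20 probe 1, Rplp2, Rpl29 and Rpl22l1 and highest for Rplp0 probe 1 and Rpl38 probe 2, whereas the second probes of Rpl30 and Rps20 do not have the wild-type arrays lowest.

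The stalk, which recruits the GTPases of elongation, gave both directions. Rplp2, an acidic stalk phosphoprotein, read 11.86 and 11.75 in reconstituted, 11.14 and 11.84 in IKKa-null and 10.46 and 10.09 in wild-type cells. Wild-type arrays were lowest. It was 2.32-fold higher in IKKa-null (log2 1.22, SE 0.267, adjusted p = 0.0165, limma) and 2.89-fold higher in reconstituted cells (1.53, SE 0.267, adjusted p = 0.00594) than in wild-type cells. The call in IKKa-null cells was lost without wild-type replicate 2 (1.03, adjusted p = 0.0962) and without IKKa-null replicate 2 (0.86, adjusted p = 0.0779). Its other 2 probes were at background. Rplp1, its partner, was not called with either probe. In IKKa-null against wild-type cells its changes were -0.23 (adjusted p = 0.436) and 0.18 (adjusted p = 0.528).

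Rplp0 anchors the stalk and is often used as a reference gene in quantitative PCR. Its first probe read 9.84 and 9.49 in reconstituted, 9.95 and 10.10 in IKKa-null and 10.72 and 11.01 in wild-type cells. Wild-type arrays were highest. It was 1.79-fold lower in IKKa-null (log2 -0.84, SE 0.204, adjusted p = 0.0227, limma) and 2.3-fold lower in reconstituted cells (-1.20, SE 0.204, adjusted p = 0.00541) than in wild-type cells. The call in IKKa-null cells was lost without either wild-type or either IKKa-null replicate, with adjusted p of 0.0521 to 0.124. Its second probe was dim, with 6.30 and 5.39 in reconstituted, 6.82 and 7.09 in IKKa-null and 5.39 and 4.80 in wild-type cells. Not well above background on either wild-type array, it was at least 1.6-fold higher in IKKa-null cells than in wild type (adjusted p = 0.00859, limma). Such a bound sets the bright group's mean against the lowest signal above background, or the dim probe's own where that is higher. That call was lost without wild-type replicate 2 (adjusted p = 0.0571) and without IKKa-null replicate 2 (adjusted p = 0.0534). Of the 17 member genes with several tested probes, Rplp0 alone had probes called in opposite directions, in IKKa-null against wild-type cells.

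Tested probes covered all paralogs but Rpl39l and Rpl3l. Rpl22l1, a paralog of Rpl22 whose level rises in mice lacking Rpl22, read 8.17 and 8.39 in reconstituted, 7.91 and 7.59 in IKKa-null and 7.05 and 7.03 in wild-type cells. The 3 groups did not overlap. It was 2.36-fold higher in reconstituted (log2 1.24, SE 0.189, adjusted p = 0.00387, limma) and 1.63-fold higher in IKKa-null cells (0.71, SE 0.189, adjusted p = 0.0317) than in wild-type cells. The call in IKKa-null cells was lost without either wild-type or either IKKa-null replicate, with adjusted p of 0.06 to 0.163. Reconstituted and IKKa-null cells differed by 0.53 (adjusted p = 0.117). Rpl22 itself read 8.87 and 9.43 in reconstituted, 9.71 and 9.82 in IKKa-null and 9.37 and 9.31 in wild-type cells and was called in no comparison.

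Rpl7l1, a paralog of Rpl7 that acts in maturation of the large subunit, had 3 probes with negative changes against wild type in both other groups. Its brightest probe read 9.15 and 9.16 in reconstituted, 9 and 9.13 in IKKa-null and 9.64 and 10.07 in wild-type cells, and both wild-type arrays were highest. It was lower in IKKa-null (log2 -0.79, SE 0.199, adjusted p = 0.0263, limma) and in reconstituted cells (-0.70, SE 0.199, adjusted p = 0.0322). Without wild-type replicate 2 these changes were -0.58 (adjusted p = 0.138) and -0.49 (adjusted p = 0.171). The call in IKKa-null cells was also lost without IKKa-null replicate 1 (adjusted p = 0.125) or 2 (adjusted p = 0.0854), and that in reconstituted cells without any 1 of the reconstituted or IKKa-null arrays (adjusted p of 0.0542 to 0.092). A further probe was called lower in IKKa-null cells (-0.78, adjusted p = 0.0272) but not in reconstituted cells (-0.61, adjusted p = 0.0514), and the remaining one was called in neither. That call in IKKa-null cells was lost without wild-type replicate 2 (adjusted p = 0.145), IKKa-null replicate 1 (adjusted p = 0.136) or IKKa-null replicate 2 (adjusted p = 0.073).

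Rps27l, a paralog of Rps27 known as a p53 target, read 12.36 and 12.38 in reconstituted, 12.94 and 13.00 in IKKa-null and 12.61 and 12.59 in wild-type cells. IKKa-null arrays were highest and the groups did not overlap, but the change of -0.60 in reconstituted against IKKa-null cells had an adjusted p of 0.0531 and that of 0.36 in IKKa-null against wild-type cells one of 0.131 (limma). The change in reconstituted against IKKa-null cells passed in 3 of 13 other settings. It passed without background correction and in the deposited matrix (-0.59, adjusted p = 0.0112), which both hold quantile-normalized raw intensities and are not separate checks. It also passed among probes detected on all 6 arrays (adjusted p = 0.0314, limma). Mdm2, another p53 target and a member of the list of regulators, read 10.88 and 10.37 in reconstituted, 12.89 and 13.04 in IKKa-null and 11.04 and 10.97 in wild-type cells. It was lower in reconstituted than in IKKa-null cells (-2.34, SE 0.214, adjusted p = 0.000959, limma) and higher in IKKa-null cells than in wild type (1.96, adjusted p = 0.00131).

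Rpl36al, a paralog of Rpl36a, was dim, at 5.73 and 5.56 in reconstituted, 6.39 and 6.48 in IKKa-null and 6.14 and 6.52 in wild-type cells. It was not well above background on either reconstituted array. It was at least 1.16-fold lower in reconstituted than in IKKa-null cells (adjusted p = 0.0416, limma) and at least 1.08-fold lower than in wild-type cells (adjusted p = 0.0318). These calls were lost in 10 and 9 of 12 other settings, with adjusted p up to 0.183 and 0.176. Rpl36a, its parent, read 13.97 and 14.05 in reconstituted, 13.98 and 14.01 in IKKa-null and 13.99 and 13.92 in wild-type cells, with overlapping groups.

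Probes for the same gene often differed. Of the 17 genes with several tested probes, 9 had probes with changes of opposite sign in IKKa-null against wild-type cells, 12 in reconstituted against wild-type cells and 8 in reconstituted against IKKa-null cells. Of the genes with at least 1 called probe, 5, 7 and 1 in these comparisons, none had all its tested probes called the same way. The median gap between the highest and lowest change of a gene was 0.42, 0.53 and 0.25 log2 units, and the greatest gap was 2.7, 2.35 and 0.75. Rpl21 and Rpl7l1 had one sign in all their probes against wild type, while Rpl30, Rps20, Rpl5 and Rplp0 had opposite signs in reconstituted against wild-type cells.

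**Figure D4:**
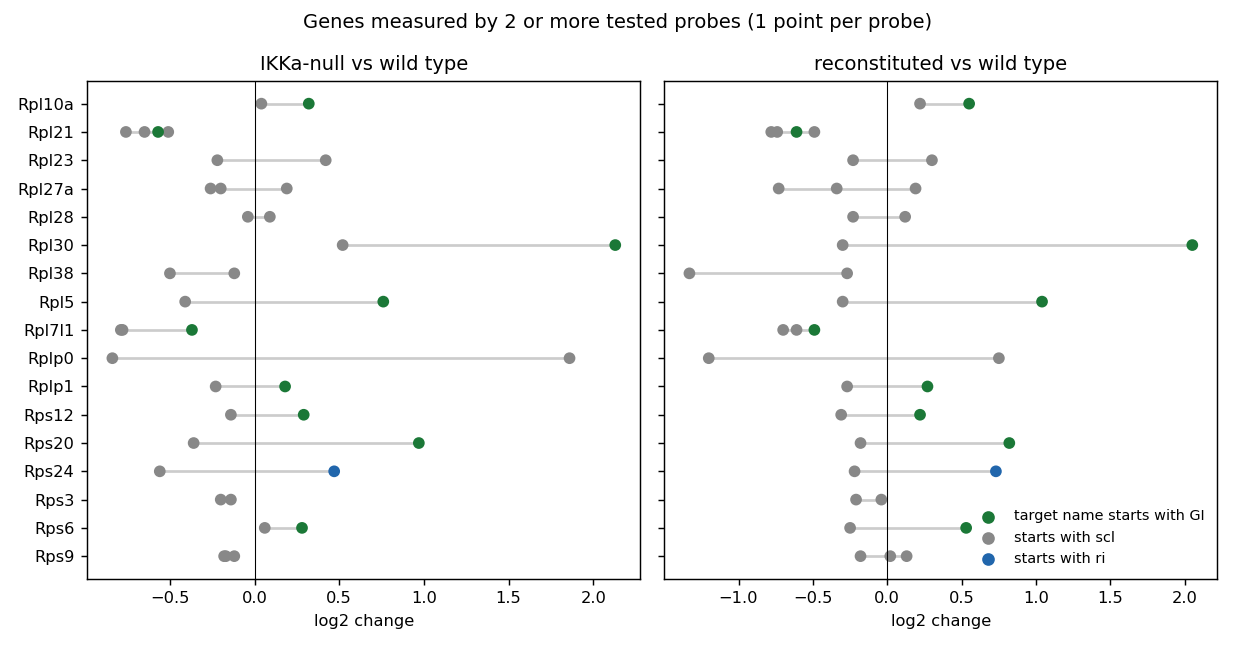
Log2 change (x axis) of every tested probe of the 17 ribosomal protein genes with more than 1 tested probe, against wild type; points on a row are probes of 1 gene, joined by a grey line and coloured by how the array names the target. Green points, for names that start with GI, lie rightmost in both panels on the rows of Rpl10a, Rpl30, Rpl5, Rpl7l1, Rplp1, Rps12, Rps20 and Rps6. On the row of Rpl21 the green point is not rightmost.

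The calls also went with how the array names its targets. Names start with GI for 11 of the 93 tested member probes, with scl for 81 and with ri for 1. Of the 7 members called higher in IKKa-null cells than in wild type, 4 had GI names (Rpl30, Rplp2, Rps20 and Rpl9), as did 5 of the 7 called higher in reconstituted than in wild-type cells, where Rpl5 was added. The lower calls had 0 of 4 and 1 of 8 GI names. Some genes had tested probes of both GI and other names. Their GI-named probe had the highest change against wild type in both comparisons, called or not, except for Rpl21. The pattern was not limited to members. Over all 677 tested probes with GI names, in IKKa-null cells 33.7% were above and 2.07% below wild type by their calls, against 13.2% and 15.5% of the 10255 with scl names. In reconstituted against wild-type cells the shares were 35.6% and 4.14% for GI names and 15.4% and 20.9% for scl names, and in reconstituted against IKKa-null cells 3.25% and 7.39% for GI and 6.77% and 7.07% for scl names. The median deviation of GI-named probes was 0.2 and 0.16 on the reconstituted arrays, 0.09 and 0.19 on the IKKa-null arrays and -0.33 and -0.3 on the wild-type arrays. Probes with ri names moved the same way, with median deviations of 0.09 and 0.23 on the reconstituted, 0.01 and 0.14 on the IKKa-null and -0.25 and -0.2 on the wild-type arrays, and scl names the other way by less, at -0.04 and -0.06, -0.03 and -0.02, and 0.08 and 0.1. By their calls, 28.5% of the 715 with ri names were above and 6.15% below wild type in reconstituted cells, and 21.4% and 3.36% in IKKa-null cells. Both wild-type arrays read low in the GI and ri classes. Without the GI names, IKKa-null cells had 3 of 82 members called higher (3.66%) and 4 called lower (4.88%) against wild type. Reconstituted cells had 2 (2.44%) and 7 (8.54%). All these shares lay below those of all tested probes with scl names, which were 13.2% and 15.5%, and 15.4% and 20.9%. The part of the target class in the higher calls was not tested. Rpl29 and Rpl22l1, also higher in both groups, have scl names.

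Most probes for genes that build ribosomes were lower in reconstituted than in wild-type cells. Of 54 tested probes for ribosome biogenesis, which covers rRNA transcription, processing and subunit assembly, 1 was higher and 37 lower (68.5%) in reconstituted than in wild-type cells, with a median log2 change of -0.86. All tested probes had 17.4% called higher and 19.0% lower there, with a median of -0.08. In IKKa-null against wild-type cells 1 was higher and 18 lower (33.3%), with a median of -0.58, where 14.0% of all probes were called lower. In reconstituted against IKKa-null cells 0 were higher and 6 lower (11.1%, limma), with a median of -0.32, against 6.88% of all probes lower. At an unadjusted p under 0.05 (limma), 14.1% of all probes were higher and 14.8% lower, and 1 and 18 of the biogenesis probes. Fibroblast markers moved beside them, with 12 of 18 probes called higher in reconstituted than in wild-type cells (median 1.96) and 3 higher and 3 lower in IKKa-null against wild-type cells, and Krt14 (-3.04), Krt7 (-0.70) and Flt1 (-0.85) were called lower in reconstituted than in wild-type cells. Their part in these counts was not tested. Bop1, of the complex that processes the large-subunit rRNA, read 9.26 and 9.35 in reconstituted, 10.22 and 10.34 in IKKa-null and 10.77 and 11.09 in wild-type cells. It was lower in reconstituted than in wild-type cells (-1.62, SE 0.185, adjusted p = 0.00139, limma) and lower in reconstituted than in IKKa-null cells (-0.98, adjusted p = 0.0174), and its partner Pes1 was lower in the same comparisons (-1.31, adjusted p = 0.00428, and -0.97, adjusted p = 0.0248). Mrto4, an assembly factor that resembles Rplp0, was lower in reconstituted than in wild-type cells by the log2 change of -1.64 (adjusted p = 0.00131), whereas Imp3, of the small-subunit processome, was higher (0.89, adjusted p = 0.0103).

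Mitochondrial ribosomal proteins (93 tested probes) had 4 higher and 45 lower (48.4%) in reconstituted against wild-type cells, with a median of -0.63. All tested probes had 17.4% called higher and 19.0% lower there, with a median of -0.08. In IKKa-null against wild-type cells the mitochondrial counts were 3 and 20 (21.5%), with a median of -0.34, against 15.0% and 14.0% of all probes. In reconstituted against IKKa-null cells they were 0 and 5 (5.38%), with a median of -0.23, against 6.46% and 6.88%. At an unadjusted p under 0.05 (limma) they were 2 and 21 (22.6%) there, against 14.1% and 14.8%. Mrpl20 was lower in reconstituted than in wild-type cells (-2.32, SE 0.169, adjusted p = 0.000277, limma), while Mrps6 was higher (1.10, SE 0.246, adjusted p = 0.0139). Initiation factors (29 tested probes) had 2 higher and 17 lower (58.6%) in reconstituted against wild-type cells, with a median of -0.73. In IKKa-null against wild-type cells they had 1 and 8 (27.6%), with a median of -0.35. In reconstituted against IKKa-null cells they had 0 and 2 (6.9%), with a median of -0.24, and 0 and 8 (27.6%) at an unadjusted p under 0.05 (limma). The shares of all probes are those given above. Eif2s2, the beta subunit of eIF2, was lower in reconstituted than in wild-type cells (-1.69, SE 0.206, adjusted p = 0.00175), and the helicase Eif4a2 was higher (1.15, SE 0.19, adjusted p = 0.00504).

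These list counts depended on single arrays. Calls over all probes also fell when an array of either compared group was left out, so the falls were not particular to these lists. Calls in IKKa-null against wild-type cells for biogenesis, 19 in all, became 7 without wild-type replicate 1, 0 without wild-type replicate 2 and 1 without either IKKa-null replicate. Those for mitochondrial ribosomal proteins, 23 in all, became 6, 2, 2 and 7 without wild-type replicate 1, wild-type replicate 2, IKKa-null replicate 1 and IKKa-null replicate 2. In reconstituted against wild-type cells the biogenesis calls, 38 in all, became 18 without wild-type replicate 2 and 23 without reconstituted replicate 2. The mitochondrial calls, 49 in all, became 30 and 14 without wild-type replicate 1 and 2 and 31 and 25 without reconstituted replicate 1 and 2, and the initiation calls, 19 in all, became 9 without wild-type replicate 2. With cyclic loess the biogenesis calls were 1 higher and 33 lower, and the mitochondrial calls 4 and 38, in reconstituted against wild-type cells. Of all tested probes 20.2% were then called higher and 15.6% lower.

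Other TOP mRNAs share the pyrimidine tract with ribosomal proteins. Of 27 tested probes, 2 were higher (7.41%) and 5 lower (18.5%) in reconstituted than in wild-type cells (median -0.07), against 17.4% and 19.0% of all tested probes. In IKKa-null against wild-type cells 2 were higher and 2 lower (7.41% each, median 0.05), against 15.0% and 14.0%. In reconstituted against IKKa-null cells none was called (limma), against 6.46% and 6.88%. There 0 were higher and 1 lower (3.7%) at an unadjusted p under 0.05 (limma), against 14.1% and 14.8%. Fau, which encodes the small-subunit protein eS30, read 13.17 and 13.52 in reconstituted, 13.12 and 13.03 in IKKa-null and 13.44 and 13.33 in wild-type cells, with a change of -0.04 in reconstituted against wild-type cells (adjusted p = 0.874, limma). Tpt1, a translationally controlled protein, was higher in reconstituted than in wild-type cells (1.06, SE 0.172, adjusted p = 0.00466), and Naca, a chaperone of nascent chains, was lower (-1.18, SE 0.193, adjusted p = 0.00482). Among 14 probes for regulators, Rptor, the mTOR-binding subunit of mTORC1, was higher in reconstituted than in wild-type cells (0.96, SE 0.162, adjusted p = 0.00525). Mtor, not well above background on either reconstituted array, was at least 1.73-fold lower (adjusted p = 0.00744).

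**Figure D5:**
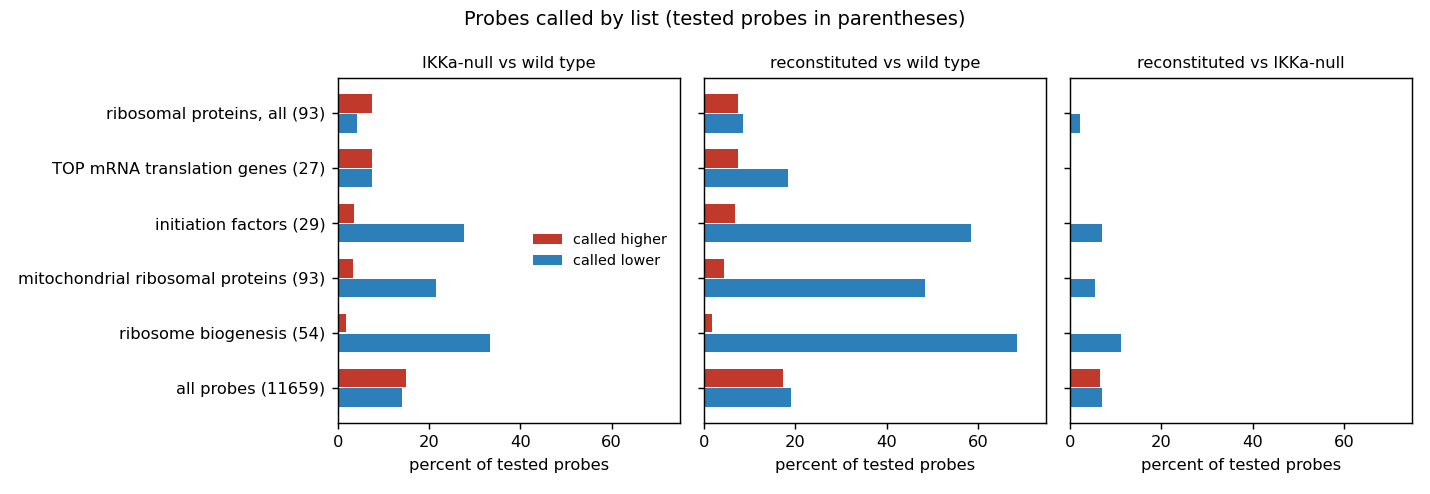
Percent of tested probes called higher (red) and lower (blue) for cytosolic ribosomal proteins, 4 related lists and all probes (rows) in the 3 comparisons, with the number of tested probes in parentheses. In reconstituted against wild-type cells the lower bars reach 68.5% for ribosome biogenesis and 8.6% for ribosomal proteins, against 19.0% of all probes.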

How the data were processed

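Per the labels, total RNA was biotin-labelled and hybridised to 1 array per sample. Per the file headers, the authors exported each deposited array file from BeadStudio 1.5.0.34 without normalization; it holds 1 average bead intensity for each of 46120 targets, with no detection values. The deposited series matrix equals those intensity values after quantile normalization. Targets were named by matching 46116 of them to matrix probes by rank over the 6 arrays.

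Background was corrected with nec of limma 3.58.1 (R 4.3.3), using 394 immune-receptor, spike and non-mouse targets as negative controls and an offset of 16, followed by quantile normalization and log2. A linear model of group means over the 6 arrays was fitted with lmFit and eBayes (3 residual and 3.97 prior degrees of freedom). Tests were two-sided with Benjamini-Hochberg adjustment over 11659 probes detected on at least 2 arrays. The procedure was tested on simulated data. The number of arrays limits the precision. Alternatives were other background corrections, scalings and filters, a replicate block, 1 probe per gene, no paralogs and leaving out each array. Leaving out GI-named targets, the related lists' counts and the alternatives for Rpl9 and the second Rpl21 probe were added after seeing the data.

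The members and lists were chosen with earlier results of these data known. Named were, per comparison, up to 6 called rises and falls whose groups do not overlap, genes with probes called both ways, stalk genes, paralogs, Fau and up to 3 genes per direction of each related list; Rpl9, Rpl11, Rpl22, Rpl36a, Rpl41, Rps2, Rps6, Rps9 and the other probes of named genes were added for description after their values were seen.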

Additional observations from a re-analysis of the deposited data

Results flagged for a closer look

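Control targets for 18S ribosomal RNA, which were not part of any comparison above, had raw intensities above those in wild-type cells on 2 of the 3 detected positions. At base 301 the raw intensity averaged 13730 ± 5040 units in reconstituted and 13020 ± 2660 in IKKa-null cells, against 8594 ± 1350 in wild-type cells (SD, n = 2 each). The arrays read 17300 and 10170 in reconstituted, 14900 and 11140 in IKKa-null and 9547 and 7641 in wild-type cells. Normalized log2 values there were 13.76 and 13.62 in reconstituted, 13.74 and 13.31 in IKKa-null and 13.53 and 12.84 in wild-type cells, so that IKKa-null and wild-type arrays overlapped. At base 849 the averages were 4093 ± 1760 units in reconstituted and 3897 ± 1070 in IKKa-null cells, against 1700 ± 661 in wild-type cells (SD, n = 2 each). Normalized log2 values were 12.17 and 11.84 in reconstituted, 12.09 and 11.39 in IKKa-null and 11.18 and 10.03 in wild-type cells, and wild-type arrays did not overlap the others. At base 523 the raw averages were 2851 ± 1320, 2556 ± 670 and 2261 ± 179 units in reconstituted, IKKa-null and wild-type cells, and the groups overlapped. The 28S target was not detected. These differences were not tested. Groups of 2 arrays are too small for a search for single outlying arrays.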

How the results depend on the processing

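No result changed sign with a call. Rpl30 probe 1 and Rpl29 against wild type, and Rplp2, Rplp0 probe 1, Rpl22l1 and Rpl38 probe 2 in reconstituted against wild-type cells, stayed past the threshold in all 13 alternatives. Every such count of settings includes both no background correction and the deposited matrix, which are not separate checks. Without background correction, and equally in the deposited matrix, member calls were 23 in IKKa-null against wild-type, 4 in reconstituted against IKKa-null and 25 in reconstituted against wild-type cells, in place of 11, 2 and 15. The 2 calls in reconstituted against IKKa-null cells became 1 with median scaling, 1 probe per gene or no paralogs, 0 with no filter on dim probes (more probes tested), and 4 with probes detected on all 6 arrays. Without GI-named targets the calls were 7 and 9 against wild type in IKKa-null and reconstituted cells. Median changes of members were 0.01, 0.09 and 0.03 with median scaling and -0.03, 0.07 and -0.02 with cyclic loess in IKKa-null against wild-type, reconstituted against IKKa-null and reconstituted against wild-type cells. Those of all probes, in the same order, were 0, 0.06 and 0.07 with median scaling and 0.02, -0.01 and 0.02 with cyclic loess.

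With 1 array left out, so that the lone array is assumed to vary like the other groups, member calls ranged from 2 to 11 in IKKa-null against wild-type, 0 to 1 in reconstituted against IKKa-null and 7 to 14 in reconstituted against wild-type cells; median changes ranged from -0.24 to -0.10, -0.01 to 0.01 and -0.24 to -0.14, and calls over all probes from 1486 to 3497, 545 to 1265 and 2076 to 3748. Replicate numbers do not pair cultures in the labels. Over all probes, same-numbered deviations correlated at 0.3 for IKKa-null with wild type, 0.37 for reconstituted with IKKa-null and 0.051 for reconstituted with wild type. Over the tested members the correlations were 0.017, -0.099 and -0.1 in the same order. With the replicate block the member calls were 11, 3 and 16, and those over all probes 3611, 1668 and 4518 in place of 3375, 1555 and 4242. The causes of these shifts were not tested. Signal near background limits Rpl36al and the second Rplp0 probe, and 19 member probes could not be compared.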
